A study of Mus musculus with 3 samples.

Results

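The imprinted genes examined here are 48 mouse genes for which one parental copy is known to be silenced, read on 3 microarrays of blastocysts. Members were found by matching the RefSeq accession of each array probe to the gene symbol, which gave 88 probes for the 48 genes, of 23458 genes named on the array. By textbook knowledge, 22 of the members are expressed from the maternal copy, 25 from the paternal copy and Gnas from either copy depending on the transcript. The arrays do not tell the parental copies apart, so each value is the sum over both. Each array held RNA of 1 pool of 30 expanded blastocysts of the outbred ICR strain, grown from zygotes of superovulated females for 96 h in KSOM medium. The young array held embryos of females aged 3-6 weeks and the aging array embryos of females aged 43-53 weeks, both cultured without additive. The suppressed aging array held embryos of females aged 43-53 weeks cultured with a neutralizing antibody to the chemokine CXCL5 (10 µg/ml) and a selective antagonist of its receptor CXCR2 (10 nM), so antibody and antagonist cannot be told apart. With 1 array per condition there is no spread between pools, and every difference below is a difference between single arrays without a test.

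Genomic imprinting marks a gene in the egg or in the sperm, mostly by DNA methylation of a control region, and the mark survives the wave of demethylation after fertilization. Imprinted genes lie in clusters in which one control region sets the allele of several neighbours, often through a long noncoding RNA. Many of them act on growth and on the placenta, which descends from the trophectoderm, the outer layer of the blastocyst. A smaller group is silenced on the maternal copy by the histone mark H3K27me3 in place of DNA methylation, and part of this silencing is kept mainly in extraembryonic cells. In the blastocyst itself, several imprinted genes are known to be expressed from both copies, with the silencing of one copy becoming complete later.

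The level of a gene was taken as the log2 of its probe intensity over the 75th percentile of all probe intensities on the same array, so that a level of 0 is the 75th percentile. Levels are given in the order young, aging, suppressed aging throughout. A probe was called above background by the flag of the scanner software, and where just 1 of the compared arrays read a gene above background, its difference is a limit, written as "at least". Levels of different genes come from different probes and are not compared with each other. The 3 arrays had no saturated spot, and between 63.6% and 65.3% of the named genes were above background on each. The labelled tissue was checked on markers. All 8 trophectoderm markers, all 8 inner cell mass and epiblast markers and all 6 primitive endoderm markers were above background on every array, with Cdx2 at 4.20, 3.83 and 4.12 and Gata3 at 5.67, 5.48 and 5.98. Of 8 cumulus and granulosa cell markers, 2 were above background, with a summed level between 0.587 and 0.691. Of 5 blood markers with a probe 1 was above background on all arrays, Hba-a1, a globin, at -0.36, 0.55 and -1.14, and the summed level was 0.974, 1.59 and 0.544. The markers themselves differed between arrays. In aging against young blastocysts, 4 of 8 inner cell mass markers were over 2-fold higher and 2 of 8 trophectoderm markers over 2-fold lower, and of 9 oocyte transcripts 3 were over 2-fold higher. Of 6 primitive endoderm markers 1 was over 2-fold higher and 1 lower. Of all genes 9.86% were over 2-fold higher and 9.19% lower. The trophectoderm markers were not all lower, with Elf5 higher by 0.91 on the log2 scale. The summed trophectoderm level (linear, in units of the 75th percentile) was 499, 376 and 444 and the summed inner cell mass level 1063, 1284 and 1188. For primitive endoderm the sum was 60.3, 67.2 and 56.4. The summed level of oocyte transcripts was 0.746, 1.95 and 0.773. Such sums mainly follow the brightest probes, Krt18 at 8.05, 7.52 and 7.73 and Nanog at 9.88, 10.14 and 10.03. The median difference of aging from young blastocysts was -0.28 over the trophectoderm, 0.72 over the inner cell mass and 0.24 over the primitive endoderm markers. The part of these shifts in the differences below was not tested, and fewer cells of a type and less RNA per cell cannot be told apart in pooled embryos.

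Most imprinted genes were detectable in the blastocysts. On all 3 arrays, 37 of the 48 members were above background, against 58.9% of all named genes, and 4 members were above background on no array, against 29.2% of all named genes. The 37 comprised 17 of 22 maternally expressed members, 19 of 25 paternally expressed members and Gnas. By array, 42 members were above background in young, 40 in aging and 41 in suppressed aging blastocysts. The 4 that no array detected were Slc22a2, an organic cation transporter imprinted in placenta, Dcn, a matrix proteoglycan imprinted in placenta, Zim1, a zinc finger gene of the Peg3 cluster, and Rasgrf1, a RAS exchange factor imprinted in brain. Mkrn3 and Dlk1 were above background only on the suppressed aging array, Nnat and Usp29 on the young and suppressed aging arrays, and Ndn, Kcnq1 and Atp10a on the young and aging arrays. On all 3 arrays, 20 members were at or above a level of 0.

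**Figure D1:**
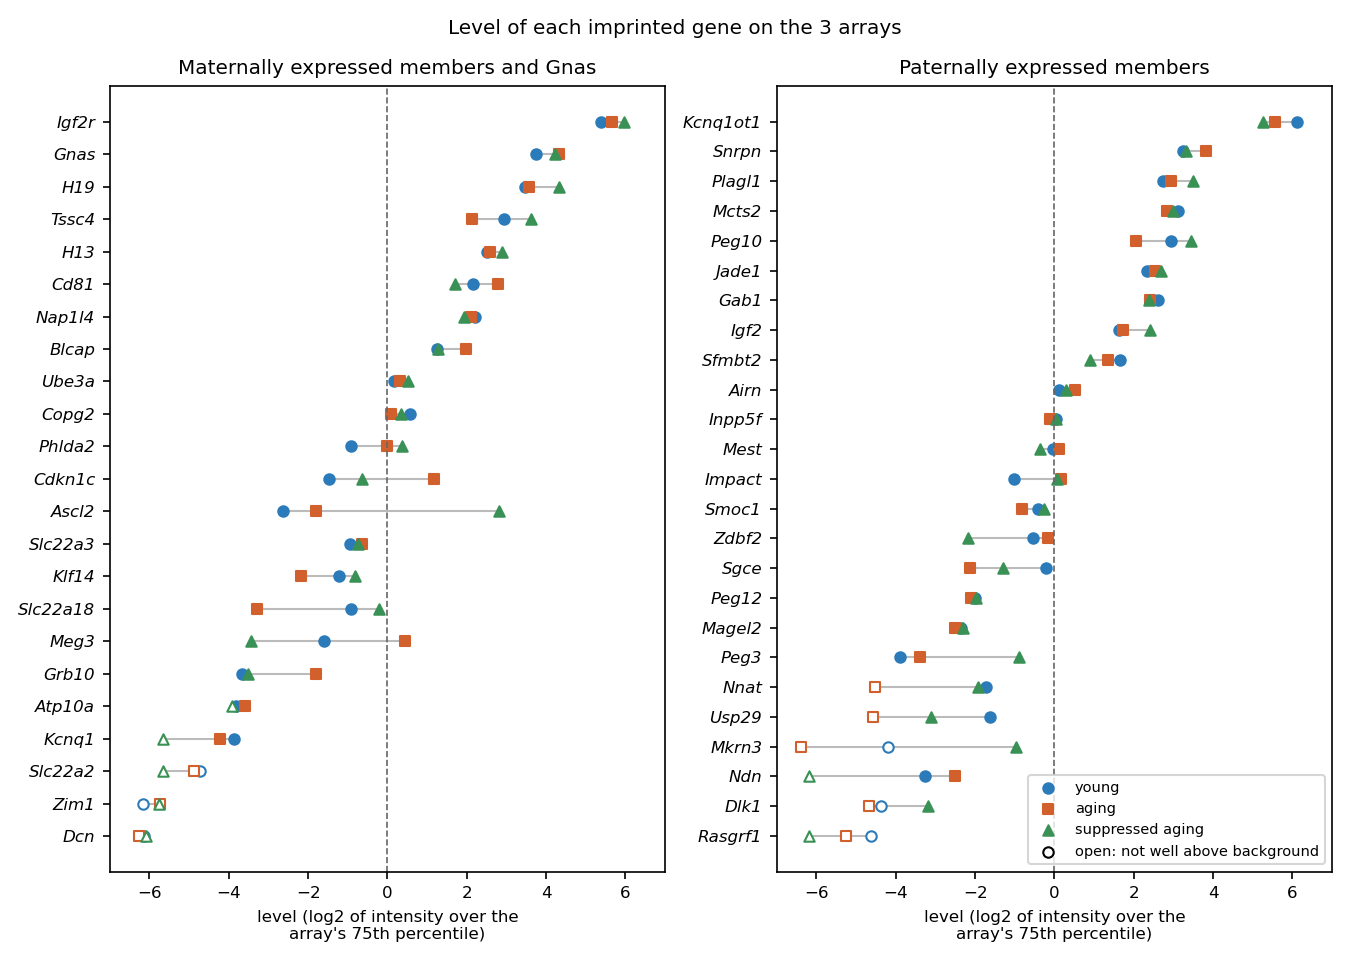
Level of each of the 48 imprinted genes (x axis, log2 of intensity over the 75th percentile of the array, dashed line at 0) on the young (circles), aging (squares) and suppressed aging (triangles) arrays, maternally expressed genes and Gnas on the left and paternally expressed genes on the right. Open symbols are not well above background, and a grey line joins the 3 arrays of a gene. The members with wide gaps between arrays, Ascl2 among them, lie in the lower part of the panels, while most of those above 0 vary little.

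The 4 members with the largest differences among those measured on all 3 arrays, Ascl2, Meg3, Slc22a18 and Peg3, differ in the CpG content of the sequence just upstream of their start, and this stretch is shown for that reason. CpG is the dinucleotide at which DNA methylation marks are set. The windows are the 250 bases before the RefSeq start (build GRCm38.p6), written along the strand of the gene with every CpG in capitals. Ascl2 (chr7:142969265-142969514, minus strand) holds 19 CpG, the Meg3 start shown (chr12:109540746-109540995, plus strand; the table holds a second start) 10, Peg3 (chr7:6730420-6730669, minus strand) 8 and Slc22a18 (chr7:143473539-143473788, plus strand) 0.
Ascl2: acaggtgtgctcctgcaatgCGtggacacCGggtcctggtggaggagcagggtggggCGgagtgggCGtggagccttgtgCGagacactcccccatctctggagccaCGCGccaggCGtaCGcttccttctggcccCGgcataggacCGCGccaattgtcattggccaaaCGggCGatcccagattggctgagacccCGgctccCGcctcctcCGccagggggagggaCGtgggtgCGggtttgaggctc
Meg3: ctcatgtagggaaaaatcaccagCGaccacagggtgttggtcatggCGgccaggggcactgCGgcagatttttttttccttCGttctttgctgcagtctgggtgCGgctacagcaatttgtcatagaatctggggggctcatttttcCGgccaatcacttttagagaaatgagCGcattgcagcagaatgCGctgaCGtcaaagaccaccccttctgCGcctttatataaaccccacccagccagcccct
Peg3: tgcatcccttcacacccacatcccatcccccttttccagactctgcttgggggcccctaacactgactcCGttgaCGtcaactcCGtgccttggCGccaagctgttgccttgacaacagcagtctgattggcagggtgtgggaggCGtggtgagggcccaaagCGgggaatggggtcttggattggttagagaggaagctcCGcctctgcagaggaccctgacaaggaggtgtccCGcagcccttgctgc
Slc22a18: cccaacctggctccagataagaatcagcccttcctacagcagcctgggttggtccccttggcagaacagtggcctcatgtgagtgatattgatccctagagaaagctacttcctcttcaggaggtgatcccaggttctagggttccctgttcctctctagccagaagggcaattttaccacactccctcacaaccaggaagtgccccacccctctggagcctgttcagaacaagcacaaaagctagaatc
Of the 48 members, 38 had such windows in the RefSeq table, 57 in all, with between 0 and 40 CpG each. A gene with several windows was given the highest count among them. The median CpG count per gene was then 14 for the members and 6 for the 27025 genes of the table. The hexamer TGCCGC, the core of the motif bound by ZFP57, a zinc finger protein that keeps imprints, occurred on either strand in any window of 8 of 38 members (21.1%) and of 9.84% of all genes. Genes with more windows score higher by construction, and the number of windows was not matched. The hexamer itself contains a CpG. Among the windows printed, Meg3 holds 1 and the others none. The Peg3 and Usp29 genes start close together on opposite strands, and their windows share 163 bases. A match of letters is a description and no evidence of binding, and the arrays measured no methylation.

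In aging against young blastocysts, the cell cycle inhibitor Cdkn1c (p57KIP2) was 6.34-fold higher, the long noncoding RNA Meg3 4.10-fold, the growth factor adaptor Grb10 3.67-fold and Impact, an inhibitor of stress kinase signaling, 2.29-fold higher. Slc22a18, a transporter-like protein, was 5.17-fold lower and the sarcoglycan Sgce 3.77-fold lower, while Nnat and Usp29, lost under the background of the aging array, were at least 6.07-fold and at least 6.44-fold lower. These were the 4 members over 2-fold higher and the 4 over 2-fold lower of 42 with a difference, where 9.86% of all genes were over 2-fold higher and 9.19% over 2-fold lower. Over 5-fold, 1 member was higher and 3 were lower, where 2.59% of all genes passed in either direction. The median difference was 0.13 over the members and 0.03 over all genes. With another background correction of the same spots (normexp), Cdkn1c, Meg3 and Sgce stayed over 2-fold apart and the other 5 did not. The log2 differences of Cdkn1c, Meg3 and Sgce were then 1.91, 1.22 and -1.05, in place of 2.66, 2.04 and -1.92.

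In suppressed aging against aging blastocysts, more members were apart. The trophoblast transcription factor Ascl2 was 24.2-fold higher, Mkrn3 at least 10.3-fold, Slc22a18 8.42-fold, the zinc finger gene Peg3 5.71-fold and the neuronal membrane gene Nnat at least 5.28-fold higher. Meg3 was 14.9-fold lower, Zdbf2 4.01-fold, Cdkn1c 3.57-fold and Grb10 3.29-fold lower. On the suppressed aging array Meg3 and Grb10 read 11.2 and 10.7 intensity units, near the limit of detection of 8.01. With normexp the Meg3 difference was -1.74 in place of -3.90 on the log2 scale. In all, 10 of 43 members were over 2-fold higher and 6 over 2-fold lower, where 8.77% and 8.5% of all genes were. The other 5 higher members were Tssc4 (2.83-fold), Peg10 (2.60-fold), Klf14 (2.58-fold), Usp29 (at least 2.31-fold) and Dlk1 (at least 2.18-fold), and the other 2 lower members Cd81 (2.12-fold, with a second probe of opposite sign) and Ndn. Over 5-fold, 5 members were higher and 1 lower, where 2.29% of all genes passed in either direction. The median difference was 0.17 over the members and -0.0034 over all genes. With normexp, 9 of the 16 stayed over 2-fold apart, namely Ascl2, Mkrn3, Slc22a18, Peg3, Tssc4, Peg10, Meg3, Cdkn1c and Cd81. The differences of all 9 were smaller in size. On the log2 scale Ascl2 was at 3.36 in place of 4.60 and Mkrn3 at 1.28 in place of 3.36. Slc22a18 was at 1.27 in place of 3.07 and Peg3 at 1.08 in place of 2.51. The aging array enters both this comparison and the one before it, so a gene that is high or low on that array alone moves in opposite directions in the pair.

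In suppressed aging against young blastocysts, where both the age of the females and the treatment differ, Ascl2 was 43.2-fold higher, Mkrn3 at least 9.44-fold, Peg3 8.0-fold, the placental growth regulator Phlda2 2.43-fold, Impact 2.12-fold and Dlk1 at least 2.00-fold higher. Meg3 was 3.63-fold, Zdbf2 3.08-fold, Usp29 2.79-fold and Sgce 2.12-fold lower, but a second Sgce probe read 1.93 the other way and the mean of its probes gave 0.43 on the log2 scale. These 6 and 4 were of 44 members with a difference, where 8.67% of all genes were over 2-fold higher and 7.64% over 2-fold lower. Over 5-fold, 3 members were higher and 0 lower, where 2.43% of all genes passed in either direction. The median difference was 0.15 over the members and 0.03 over all genes. With normexp, Ascl2, Mkrn3 and Peg3 stayed over 2-fold apart, at log2 differences of 3.59, 1.06 and 1.09 in place of 5.43, 3.24 and 3.00.

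**Figure D2:**
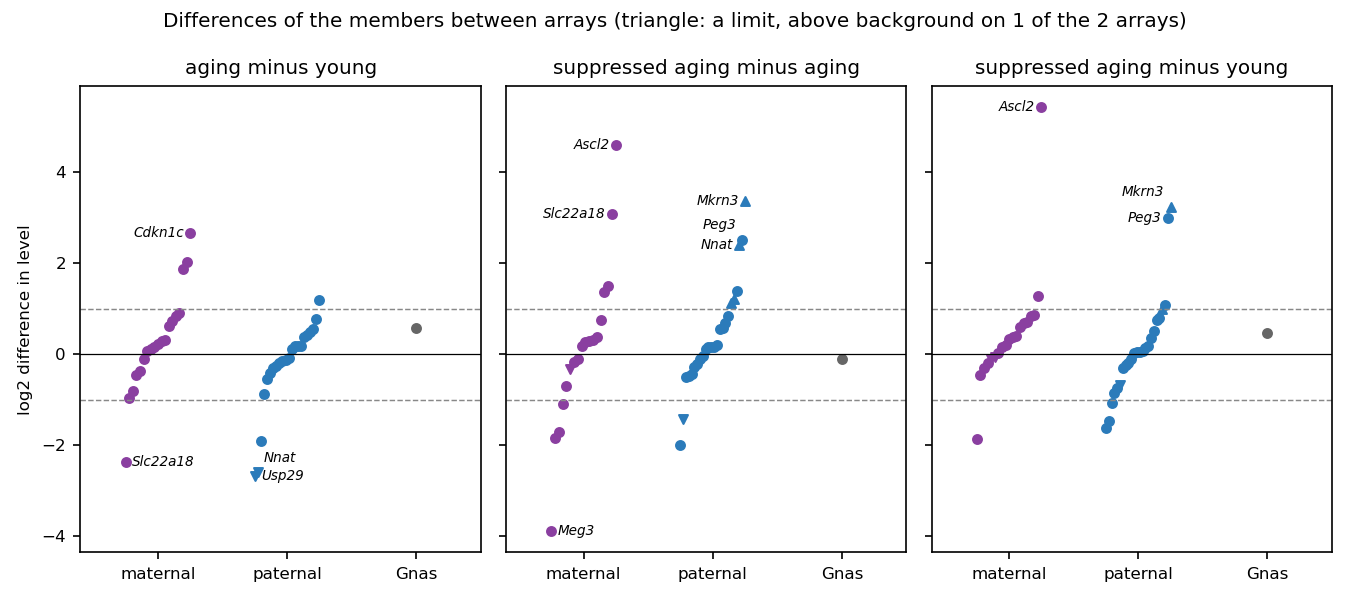
Log2 difference in level (y axis) of each member in the 3 comparisons, with maternally expressed genes in purple, paternally expressed genes in blue and Gnas in grey, each group sorted by its difference. Dashed lines mark 2-fold, triangles are limits, and members over 5-fold apart are named. Ascl2 stands at 4.60 and 5.43 in the comparisons with the suppressed aging array, and most points lie between the dashed lines.

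By parental group, no median difference exceeded 0.34 in size. The median difference of the maternally expressed members was 0.23 in aging against young, 0.22 in suppressed aging against aging and 0.34 in suppressed aging against young blastocysts. For the paternally expressed members it was -0.11, 0.16 and 0.05, where the first turned to 0.014 with limits left out and the last to -0.0018 with the authors' processed values. In aging against young blastocysts, 13 of 19 maternally expressed members were higher and 6 lower, where 51.9% of all genes were higher. Of 22 paternally expressed members, 10 were higher and 12 lower. In suppressed aging against aging blastocysts, 10 of 18 maternally and 15 of 24 paternally expressed members were higher, where 49.7% of all genes were. In suppressed aging against young blastocysts, 13 of 19 and 14 of 24 were higher, where 52.4% of all genes were. Over 2-fold in aging against young blastocysts, 3 of 19 maternally expressed members were higher and 1 lower. Of 22 paternally expressed members 1 was higher and 3 were lower, beside shares of 9.86% and 9.19% of all genes. In suppressed aging against aging blastocysts the same counts were 4 and 4 of 18 maternally and 6 and 2 of 24 paternally expressed members. The shares of all genes were 8.77% and 8.5%. In suppressed aging against young blastocysts they were 2 and 1 of 19 maternally and 4 and 3 of 24 paternally expressed members. Here the shares of all genes were 8.67% and 7.64%. These counts are descriptions of single arrays.

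The differences sat mainly in members of low mean level over the 3 arrays. This mean includes the arrays compared, so the grouping is not independent of the differences. Ascl2 falls below 0 by its mean although the suppressed aging array read it brightly. Of the 20 members with a mean level at or above 0, none was over 2-fold apart in aging against young blastocysts, 3 in suppressed aging against aging and none in suppressed aging against young, against 9.48%, 7.64% and 8.49% of all genes of such levels. The 3 were Peg10, Tssc4 and Cd81. Below a level of 0, 8 of 22, 13 of 23 and 10 of 24 members were over 2-fold apart, or 36.4%, 56.5% and 41.7%, against 28.2%, 26.8% and 24.0% of all genes of such levels. With limits left out, a setting added after the values were seen, the shares were 30.0%, 47.1% and 42.1% of members against 23.1%, 22.3% and 19.8% of all genes.

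The H19-Igf2 cluster carries the best known imprint, with the noncoding RNA H19 expressed from the maternal and the growth factor gene Igf2 from the paternal copy. H19 was at 3.47, 3.57 and 4.33 and Igf2 at 1.63, 1.74 and 2.42. By these probes both differed by 0.11 between aging and young blastocysts and were 1.82-fold and 1.73-fold higher in suppressed aging than in young blastocysts. A second Igf2 probe did not share this course. It read 0.54, -0.56 and -0.064, so the difference of aging from young blastocysts was 0.11 by the first probe and -1.10 by the second, and that of suppressed aging from young blastocysts 0.79 and -0.61. Igf2r, which clears IGF2 from the cell surface and limits growth, was at 5.38, 5.66 and 5.98. Airn, the paternal noncoding RNA that runs antisense through Igf2r and silences it, was at 0.12, 0.53 and 0.30. The strand of the labelled product is not given in the sources used here, so signals of such antisense partners, Kcnq1 and Kcnq1ot1 included, cannot be told apart.

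Other members tied to growth signaling did not share one course. Grb10, which dampens insulin and IGF receptor signaling, was at -3.68, -1.80 and -3.52. It stood out on the aging array and was near the limit of detection on the other arrays. Its second probe was not above background in young and read -1.41 in aging and -2.86 in suppressed aging blastocysts, which is the same direction in both comparisons with the aging array. Plagl1, a zinc finger factor that acts on a network of imprinted genes, was at 2.74, 2.93 and 3.50, with a second probe at 2.55, 2.46 and 2.47. Gnas, the stimulatory G protein subunit, was at 3.76, 4.33 and 4.22, and a second probe took the same course with 3.31, 4.03 and 3.74. Another Gnas probe read 2.13, 1.72 and 1.97, the opposite way in aging against young blastocysts.

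The Kcnq1ot1 cluster held the largest difference of any member. Ascl2, which is needed to form the spongiotrophoblast of the placenta, was at -2.63, -1.80 and 2.80, or 23.4, 44.5 and 853 intensity units, so that only the suppressed aging array read it brightly. It is read by 1 probe. None of the 8 trophectoderm markers was over 2-fold apart in suppressed aging against aging or against young blastocysts, and their median differences were 0.25 and -0.05. The part of trophectoderm content in the Ascl2 difference was not tested. Cdkn1c, also read by 1 probe, was at -1.48, 1.18 and -0.65, highest on the aging array. Phlda2, which restrains placental growth, was at -0.93, -0.022 and 0.36. Slc22a18 was at -0.93, -3.29 and -0.22, lowest on the aging array. Its second probe had the same order with smaller steps, at -2.69, -3.14 and -1.93, so that the difference of aging from young blastocysts was -2.37 by the first and -0.45 by the second.

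The cluster holds 5 further members. Tssc4, a splicing-related protein gene, was at 2.95, 2.13 and 3.63. Cd81, a tetraspanin, was at 2.17, 2.80 and 1.71, but its second probe read 2.02, 1.93 and 2.26, with the opposite sign in every comparison. Nap1l4, a nucleosome assembly gene at the edge of the cluster, was at 2.22, 2.10 and 1.92. The potassium channel gene Kcnq1 was near the limit of detection at -3.86 and -4.23 and not above background in suppressed aging blastocysts. Kcnq1ot1, the paternal noncoding RNA that silences these neighbours in cis, was at 6.11, 5.56 and 5.27. A second Kcnq1ot1 probe had the same order at 4.63, 4.35 and 4.25, and another at 0.64, -0.033 and -0.18. The step from young to suppressed aging was -0.84, -0.38 and -0.82 by these 3 probes, whereas one more, at -2.85 in young, under background in aging and -1.86 in suppressed aging blastocysts, read the opposite way.

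In the Dlk1-Meg3 cluster the maternal noncoding RNA Meg3 was at -1.59, 0.44 and -3.45. It was highest in aging and lowest in suppressed aging blastocysts, where it was near the limit of detection. A second probe, at -1.86, -1.62 and -3.11, kept this order, with a step of 0.24 from young to aging and -1.49 from aging to suppressed aging blastocysts. The other 2 Meg3 probes were not above background on any array. Dlk1, a transmembrane protein of the Notch family expressed from the paternal copy, was at -3.19 in suppressed aging blastocysts and not above background on the other arrays, and its second probe was not above background on any array.

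**Figure D3:**
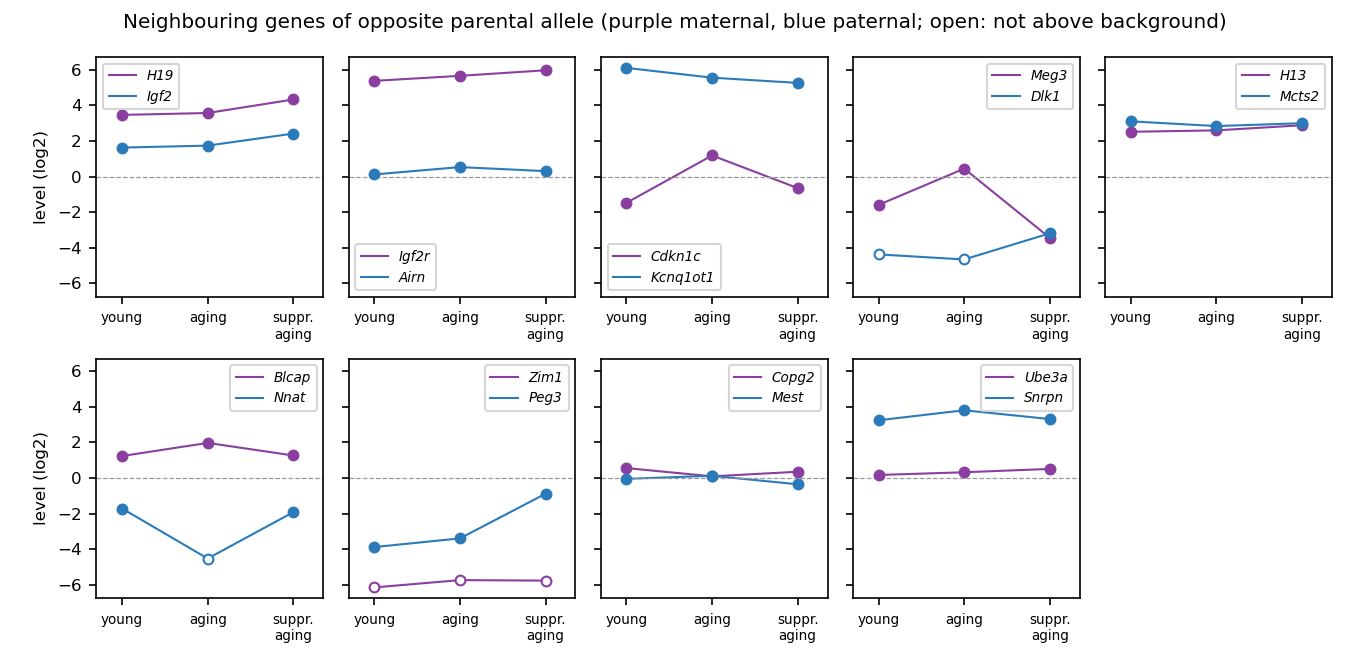
Level (y axis, log2 of intensity over the 75th percentile of the array) on the 3 arrays for 9 pairs of neighbouring imprinted genes of opposite parental allele, with the maternally expressed gene in purple and the paternally expressed gene in blue. Open symbols are not well above background, and only the course of each line is meaningful, as the probes differ. H19 and Igf2 run in parallel by the brightest probes drawn here, though not by the second Igf2 probe. Meg3 and Cdkn1c peak on the aging array, as do Airn, Blcap, Mest and Snrpn by these probes. Kcnq1ot1, the partner of Cdkn1c, does not, and Dlk1, the partner of Meg3, is not above background on the young and aging arrays.

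The Snrpn cluster corresponds to the human Prader-Willi and Angelman region. Snrpn, a spliceosomal protein gene, was at 3.25, 3.81 and 3.32 by a probe printed in 10 spots on each array, whose spots had an SD of 0.12, 0.10 and 0.035. These SDs are the spread of spots on 1 array and not of embryos. The other 2 Snrpn probes read 3.58, 3.07 and 3.38 and 2.87, 2.17 and 2.34, so the difference of aging from young blastocysts was 0.56 by the first and -0.52 and -0.70 by the others, a disagreement larger than the spread of the spots. Snrpn also shares its transcript with Snurf. Mkrn3, a RING finger gene, was at -0.96 in suppressed aging blastocysts, 63.0 intensity units, and not above background at 7.90 and 1.84 units in young and aging blastocysts. The MAGE family gene Ndn went the other way, with -3.26 and -2.50 in young and aging blastocysts and no signal above background in suppressed aging blastocysts, at least 2.70-fold under the aging array. Magel2 was at -2.36, -2.51 and -2.31 and Peg12 at -2.01, -2.09 and -1.97, both within 0.20 across the arrays. Of the maternally expressed neighbours, the ubiquitin ligase gene Ube3a was at 0.17, 0.32 and 0.51 and the flippase gene Atp10a at -3.82 and -3.59 and then under background, although another Atp10a probe was above background only on the suppressed aging array, at -2.80.

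Peg10, a gene derived from a retrotransposon and required for the placenta, was at 2.94, 2.06 and 3.44, lowest in aging blastocysts. Its second probe gave the same order at 1.84, 0.92 and 2.76, and the step from aging to suppressed aging was 1.38 by the first and 1.84 by the second probe. Its neighbour Sgce was at -0.22, -2.13 and -1.30 and was likewise lowest on the aging array. A second Sgce probe was at -2.83 in young, under background in aging and at -0.90 in suppressed aging blastocysts, so in suppressed aging against young blastocysts the probes differed in sign, with -1.08 and 1.93. Mest, a hydrolase family gene, was at -0.047, 0.13 and -0.35, while its second probe read -3.54, -1.78 and -2.93. Both Mest probes were highest on the aging array. Of the maternally expressed genes next to it, the coatomer gene Copg2 was at 0.56, 0.094 and 0.35, and the transcription factor gene Klf14 at -1.23, -2.19 and -0.82.

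In the Peg3 cluster, Peg3 was at -3.89, -3.40 and -0.89, near the limit of detection in young and aging blastocysts and at 66.2 intensity units in suppressed aging blastocysts. Usp29, which starts beside it on the other strand, was at -1.63 in young, under background in aging and at -3.11 in suppressed aging blastocysts. Both were higher in suppressed aging against aging blastocysts, Usp29 by at least 1.21 and Peg3 by 2.51, whereas in suppressed aging against young blastocysts Peg3 was higher by 3.00 and Usp29 was at -1.48. Zdbf2 was at -0.54, -0.17 and -2.17 and was low only on the suppressed aging array. Impact was at -1.02, 0.17 and 0.059, higher on both arrays of older females than on the young array. Peg3, Zdbf2 and Impact are each read by 1 probe.

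Some imprinted genes sit inside another gene. Nnat, inside Blcap, was at -1.72 in young, under background in aging and at -1.92 in suppressed aging blastocysts, and Blcap at 1.24, 1.98 and 1.27, so that Nnat was lowest and Blcap highest on the aging array. The retrogene Mcts2, inside H13, was at 3.1, 2.84 and 3.00, with the caution that its sequence is close to that of its parent gene Mcts1. H13, a signal peptide peptidase, was at 2.52, 2.60 and 2.88 by its brightest probe. A probe at 2.30, 2.77 and 1.88 and another at 1.10, 1.09 and 0.78 reversed the step from aging to suppressed aging blastocysts. A further H13 probe, at 0.11, -0.93 and -0.34, gave a difference of aging from young blastocysts of -1.04, against 0.08 by the brightest. Inpp5f, an inositol phosphatase gene, was at 0.028, -0.11 and 0.046. Slc22a3, a cation transporter imprinted in placenta, was at -0.95, -0.64 and -0.74.

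Of the members, 4 are imprinted through H3K27me3. Sfmbt2, a Polycomb protein needed for trophoblast maintenance, was at 1.65, 1.34 and 0.90, Gab1, a docking protein of receptor tyrosine kinases, at 2.60, 2.42 and 2.37, Jade1, a subunit of a histone acetyltransferase complex, at 2.34, 2.53 and 2.70, and the matrix protein gene Smoc1 at -0.41, -0.82 and -0.26. None of the 4 was over 2-fold apart in any comparison, and their median absolute differences were 0.25, 0.30 and 0.29. Over all genes the values were 0.44, 0.41 and 0.39, and over all genes at or above a level of 0 they were 0.34, 0.30 and 0.29. Smoc1 lies under that level on every array. The other 2 Sfmbt2 probes read 0.60, -0.29 and -0.35 and 0.69, 1.19 and 0.76, which disagree in sign for aging against young blastocysts. Further genes of this kind outside the 48, Slc38a4 and the X-inactivation RNA Xist, were at 3.17, 3.55 and 3.20 and at 5.20, 4.64 and 4.41.

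Probes of one gene were compared as a check on the direction of a difference. For members whose 2 brightest probes were above background on both arrays, the direction was the same in 9 of 14 members in aging against young, 11 of 15 in suppressed aging against aging and 7 of 15 in suppressed aging against young blastocysts. Over all genes the shares were 56.7%, 54.8% and 56.1%. The median gap between the 2 probes of a member was 0.58, 0.50 and 0.61 on the log2 scale. Among the members over 2-fold apart, Meg3, Slc22a18, Peg10 and Grb10 kept their direction on a second probe in suppressed aging against aging blastocysts, whereas Cd81 did not. For 25 of the 48 members, Ascl2 and Cdkn1c among them, no second probe was matched by accession.

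**Figure D4:**
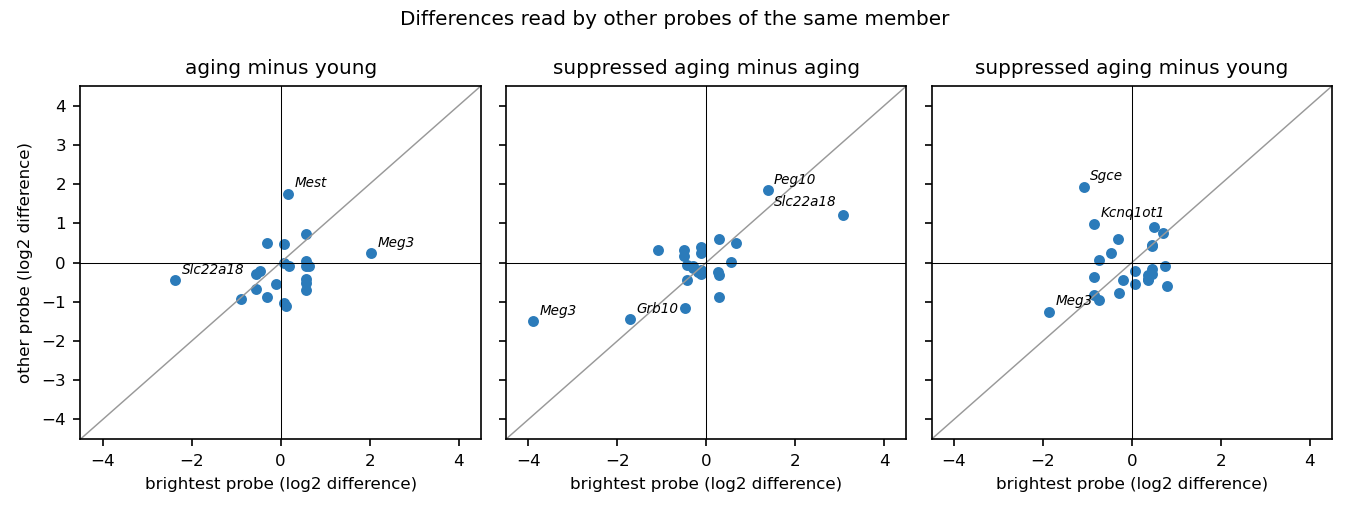
Log2 difference read by the brightest probe of a member (x axis) against that read by each of its other probes (y axis), for probes above background on both arrays of the comparison. The grey diagonal is equality, and points in the upper left and lower right of each panel disagree in direction. Most points lie near the centre with no order, while Meg3, Slc22a18, Peg10 and Grb10 lie away from it with the same sign on both probes in suppressed aging minus aging.

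Genes that keep imprints were examined as the pathway around the members. All 15 genes of the list, which covers ZFP57 and its partners, the maintenance and de novo DNA methyltransferases, the TET demethylases, CTCF and SMCHD1, were above background on every array. Of these, 1 was over 2-fold higher and 1 lower in each comparison, a share of the list that lies under the share of all genes in each case, between 7.64% and 9.86%. In aging against young blastocysts Tet1 was higher by 1.12 and Tet3 fell by 1.69 on the log2 scale, both of them enzymes that oxidize methylated cytosine. In suppressed aging against aging blastocysts Smchd1, a chromatin protein that silences imprinted clusters and the inactive X, was higher by 1.37, at 1.70, 1.41 and 2.78, and Trim28, the corepressor that ZFP57 recruits, was lower at 4.28, 5.06 and 3.74. In suppressed aging against young blastocysts Smchd1 was again the gene that was higher, by 1.08, and Tet3 the gene that was lower, with a difference of -2.39. The medians of the list were -0.013, -0.16 and 0.12. None of 5 Polycomb repressive complex 2 genes, which write H3K27me3, was over 2-fold apart, and their medians were -0.19, 0.32 and 0.23. Of 44 further imprinted genes, 42 had a probe, 26 were above background on all 3 arrays and 11 on none, and 3 of 31 were over 2-fold higher and 4 lower in aging against young, 3 and 1 of 29 in suppressed aging against aging, and 2 and 3 of 29 in suppressed aging against young blastocysts. These counts stand beside shares of all genes of 9.86% and 9.19%, 8.77% and 8.5%, and 8.67% and 7.64%. Their medians were -0.031, -0.086 and -0.082.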

How the data were processed

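Gene expression was measured on 3 one-colour Agilent mouse arrays, 1 per condition, each with 59305 spots. The authors scanned the arrays and deposited per-spot intensity values as written by Agilent Feature Extraction (version 12.0.3.1 per the submitters' processing notes), which are background-subtracted and not normalized between arrays. The methods describe single-primer global PCR amplification of the RNA and the labels a low-input labeling kit; either can shift levels of scarce transcripts.

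Here the mean log2 intensity over the spots of a probe, without outlier spots (85 to 118 per array) and control spots, was centred on the 75th percentile of its array. A gene is the probe with the highest mean level. Probes were named by RefSeq accession. A signal under background was replaced by the lowest level among probes above background on that array (-4.20, -4.32 and -3.93), or its own if higher. A 2-fold difference was used as the limit, and 5-fold as a stricter one. The authors also deposited a table of processed intensity values, which equal the scanner intensity times 1 factor per array (3.46, 3.34 and 3.96) and were used as an alternative. Python 3.11.15 with pandas 2.3.3 and NumPy 2.4.6 and, for normexp (offset 50), R 4.3.3 with limma 3.58.1 were used, and the scripts were tested on simulated data. All 48 members are named. Of the further lists, genes over 2-fold apart in imprint maintenance and Polycomb repressive complex 2 are named, with Xist and Slc38a4. Members, lists and settings were chosen with earlier results of these data known. The number of arrays limits the precision, and no test was possible. Differences over 2-fold were also more frequent among genes of low mean level, as given above. Alternatives covered background correction, normalization, outlier spots, the choice of probe, the filter on dim probes and the fold.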

Additional observations from a re-analysis of the deposited data

How the results depend on the processing

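With normexp background correction, 3 members in place of 8 were over 2-fold apart in aging against young blastocysts, 9 in place of 16 between suppressed aging and aging, and 3 in place of 10 between suppressed aging and young. With the deposited background correction and a 5-fold limit the counts in this order were 4, 6 and 3. Over all genes normexp gave 443 higher and 404 lower in aging against young blastocysts in place of 1593 and 1486, 380 and 354 in place of 1392 and 1349 in suppressed aging against aging, and 367 and 354 in place of 1382 and 1217 in suppressed aging against young. The offset of normexp draws dim signals together by construction. With only genes above background on both arrays, the median of paternally expressed members in aging against young blastocysts was 0.014 in place of -0.11, and with no filter on dim probes the median of maternally expressed members in suppressed aging against aging was 0.065 in place of 0.22. Averaging the probes of a gene turned Sgce in suppressed aging against young blastocysts from -1.08 to 0.43, because its probes disagree. Of the 294 values of single members under alternatives, 258 stayed, 35 moved and 1 reversed. A value stayed if it moved by less than the median gap between 2 probes over all genes (0.54, 0.53 and 0.48 by comparison). Of the counts and medians 79 stayed, by a ratio of at most 1.5 or a move under 0.1, and 8 moved. Several alternatives cannot move a member with 1 probe that is above background on both arrays. Most scalings shift all genes of an array by the same amount, so these counts are no measure of robustness. The largest shift of the median of all genes by any scaling was -0.09. The authors' table held 44 of the 48 members. No paired analysis was possible because only 1 array was made per condition, and for the same reason no array could be left out.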
